A study of Mus musculus with 7 samples.

Results

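Integrins and laminins are the receptors and the ligands by which endothelial cells hold on to their basement membrane, and 25 integrin subunit genes and 10 laminin chain genes were examined in a mouse endothelial line. The 35 genes were chosen by symbol, with earlier results of these data known, among 49585 genes in each deposited table. Of these 35, 25 had enough reads to be tested and 10 did not. The libraries were 4 from MS-1 cells labelled as overexpressing lipoprotein lipase (LPL) and 3 from wild-type MS-1 control cells, all grown in DMEM. MS-1 is a single immortalised line from mouse pancreatic islet endothelium. The labels give neither the species of the LPL sequence nor how it was introduced, and no vector-only library was analysed here. They also do not say whether replicates came from separate cultures, so a p-value here reflects nothing beyond the scatter among 7 libraries, which may be technical.

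An integrin is a pair of one alpha and one beta subunit, and the alpha subunit largely sets the ligand. The α3, α6 and α7 subunits bind laminins, α1, α2, α10 and α11 bind collagens, α5, α8, αv and αIIb recognise the RGD sequence of fibronectin, vitronectin and related proteins, and αL, αM, αX and αE are subunits of leukocyte integrins. A laminin is a cross-shaped trimer of one alpha, one beta and one gamma chain, named by its chain numbers. Blood vessels are known for laminins with the α4 and α5 chains, encoded by Lama4 and Lama5.

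The overexpressed gene followed the labels. Lpl had 10867, 12691, 10901 and 12753 reads in LPL overexpression replicates 1 to 4, against 1, 1 and 6 reads in control replicates 1 to 3. Library totals lay between 24328418 and 29210847 reads. All 7 endothelial markers examined, among them Pecam1, Cdh5 and Erg, stood above 1 TPM (a level corrected for gene length and scaled to 1000000 per library) in every library, and 6 of the 7 were lower with LPL overexpression, with log2 fold changes over the 7 between -0.40 and -0.02. The 8 pigment cell markers summed to between 2130 and 2250 TPM in the LPL overexpression libraries, against 2.73 to 2.76 TPM in the controls, where Tyrp1, Dct, Tyr, Mlana and Sox10 had no read. All 8 were called higher. Among 4 Schwann cell markers the sum was between 9.59 and 11.1 TPM with LPL overexpression and between 1.79 and 2.06 TPM in controls. The 6 fibroblast and mural markers summed to at most 3.5 TPM with LPL overexpression and 2.55 TPM in controls, and the 6 epithelial markers, of which Epcam, Krt5 and Krt14 had no read in any library, to between 61.2 and 65.3 TPM and between 71.1 and 75.9 TPM. Of 3 fibroblast and mural markers tested, Col3a1 was called higher (76 reads with LPL overexpression, 15 in controls) and 0 lower. Nearly all of the epithelial sum was Krt18, at means of 62.9 TPM with LPL overexpression and 73.3 TPM in controls. Every result below compares libraries that also differ in these genes, and the part of the pigment cell genes in them was not tested. In bulk RNA, fewer cells of a type and less RNA per cell cannot be told apart. Over all 13639 genes tested, 43.2% were called (edgeR's quasi-likelihood test, adjusted p of at most 0.05 over all genes), 21.9% higher and 21.3% lower with LPL overexpression. With limma on log2(TPM + 0.5) the split was 3304 higher and 2082 lower, in place of 2988 and 2900.

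For 3 of the chains described below the 250 bases before a RefSeq transcription start are shown. These chains moved in different directions: Itga3 and Lama5 were lower and Itgb5 was higher with LPL overexpression. The sequences are from RefSeq on GRCm38.p6, the assembly of mm10, given 5′ to 3′ in the gene's own orientation, with capitals marking each GGGCGG or its reverse complement CCGCCC, the GC box bound by factors of the Sp1 family. Itga3 is on the minus strand (chr11:95076715-95076964), Lama5 on the minus strand (chr2:180225860-180226109) and Itgb5 on the plus strand (chr16:33829415-33829664).
Itga3: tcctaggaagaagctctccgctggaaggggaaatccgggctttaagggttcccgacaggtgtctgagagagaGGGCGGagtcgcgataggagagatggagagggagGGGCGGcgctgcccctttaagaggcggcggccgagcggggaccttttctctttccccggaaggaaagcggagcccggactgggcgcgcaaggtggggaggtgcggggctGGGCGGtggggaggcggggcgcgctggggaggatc
Lama5: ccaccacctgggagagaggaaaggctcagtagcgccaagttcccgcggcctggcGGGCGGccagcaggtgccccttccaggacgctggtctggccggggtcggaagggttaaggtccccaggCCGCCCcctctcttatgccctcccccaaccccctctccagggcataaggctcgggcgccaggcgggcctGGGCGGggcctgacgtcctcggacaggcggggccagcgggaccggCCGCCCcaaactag
Itgb5: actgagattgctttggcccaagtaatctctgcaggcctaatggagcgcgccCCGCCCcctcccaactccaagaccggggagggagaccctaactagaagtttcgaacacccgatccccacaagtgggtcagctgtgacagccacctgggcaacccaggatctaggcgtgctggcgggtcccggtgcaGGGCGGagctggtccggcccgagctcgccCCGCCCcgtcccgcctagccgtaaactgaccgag
The windows held 3 GC boxes before Itga3, 4 before Lama5 and 3 before Itgb5, each more than any other window of the 23 genes with an entry. The windows before Itgav, called lower, and Itga8, called higher, held no GC box. Itga3 has a second RefSeq start, not shown, whose window (chr11:95069199-95069448) held 1 GC box. Of the 35 genes, 23 had an entry in the RefSeq promoter table, 8 of them (34.8%) with a GC box on either strand and 0 with the letters TATAAA on either strand. Over all 32851 promoter windows of the same length, 32.7% held a GC box and 12.4% TATAAA. The share of genes counts a box in any entry of a gene, whereas the background counts single windows. Itga6, Itga7, Itgb4 and Lama4, all called lower, had no entry and were not examined. Among the genes with an entry, the GC box was thus found at about the background share, and before chains that moved either way.

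The integrin and laminin genes spanned levels from no read to 805 TPM. In both groups, 14 of the 35 were at 10 TPM or more in every library, and another 14 were under 1 TPM in every library. Itgb1, the common partner of most alpha subunits, was the most abundant, at 722 ± 20.4 TPM (SD, n = 4) with LPL overexpression and 794 ± 10.5 TPM (SD, n = 3) in controls. Lamc1, which encodes the γ1 chain of most laminins, followed at 308 ± 14.1 TPM with LPL overexpression and 349 ± 1.41 TPM in controls. Below it in the controls came Itga3, Itga5, Itga7, Itga6, Lama5 and Itgb3. Itga7 at 143 to 151 TPM and Itga6 at 126 to 134 TPM were separate in the controls, whereas Lama5 at 100 to 104 TPM and Itgb3 at 96.3 to 101 TPM were not. With LPL overexpression Itgb3, at 94.3 to 99.9 TPM, overlapped Itga7, at 94.1 to 107 TPM, and Itga6 stood below both. There, Itga3 at 246 to 268 TPM and Itga5 at 238 to 268 TPM also overlapped.

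**Figure D1:**
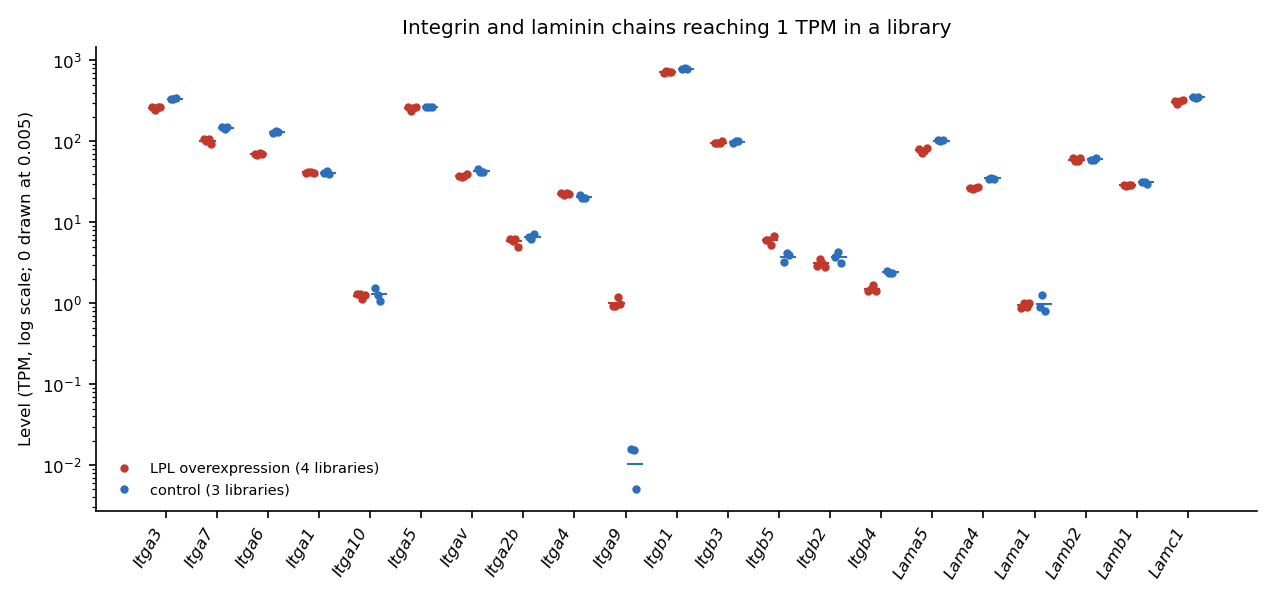
Level of each integrin and laminin chain that reached 1 TPM in a library (y axis, TPM on a log scale), by gene, with 1 point per library and a line at the group mean, 4 LPL overexpression libraries left and 3 control libraries right. The 4 LPL overexpression points of Itga3, Itga7 and Itga6 lie below the 3 control points, and Itga9 is near 1 TPM against 2 reads in all controls, with the control library that had no read drawn at 0.005.

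Of the 25 genes tested, 13 were called lower with LPL overexpression (52.0%, against 21.3% of all genes tested) and 4 higher (16.0%, against 21.9%), while 8 did not pass. Their median log2 fold change was -0.20, beside a median of 0.00 over all genes tested. A call needs enough reads, and the 10 untested genes are not in these counts. Normalised counts of the groups did not overlap for 15 of the 25, 3 higher and 12 lower, against 44.6% of all genes tested. Counting called genes alone, 6 of the 25 were lower by at least 1.25-fold, Itga6, Itgb4, Itga7, Lama5, Lama4 and Itga3, against 5.02% of all genes tested. Called falls of at least 1.5-fold were found for 2, Itga6 and Itgb4, against 1.96%. Called rises of at least 1.5-fold were found for 3, Itga9, Itga8 and Itgb5, against 6.51%. The scarce Itga2 and Itgb7 had log2 fold changes of -0.46 and -0.58 that were not called.

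**Figure D2:**
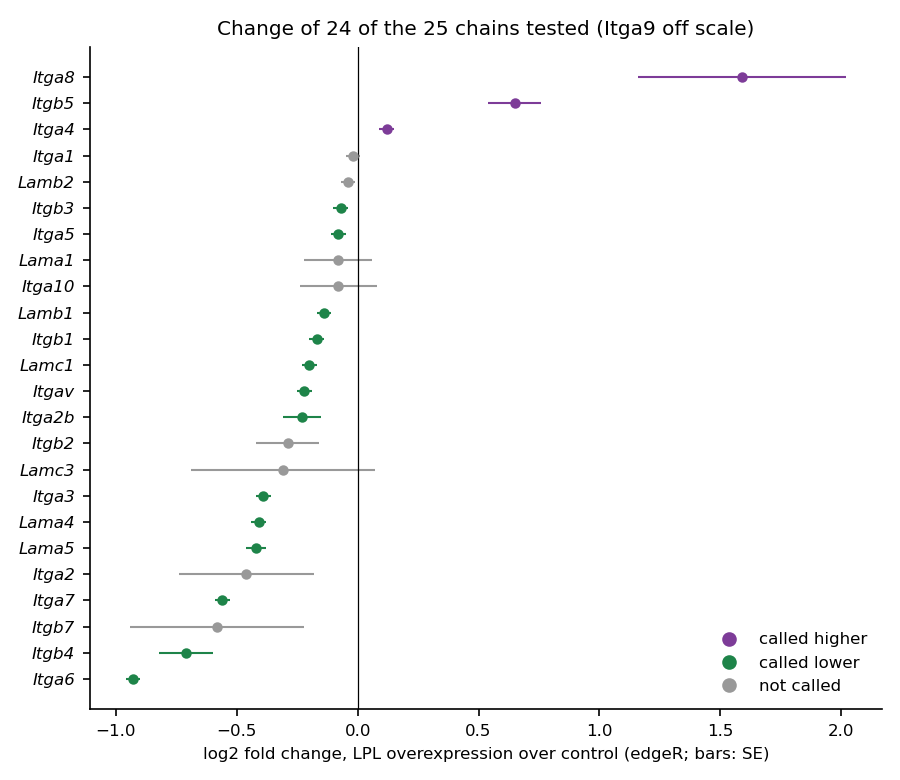
log2 fold change of LPL overexpression over control from edgeR (x axis) for 24 of the 25 genes tested, with bars of 1 standard error and colours for the call. Itga6 is lowest at -0.93 and the low genes Itga8, Itga2, Itgb7 and Lamc3 carry the widest bars.

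The 3 alpha subunit genes classed as laminin-binding, Itga3, Itga6 and Itga7, were all lower with LPL overexpression. Itga1, whose product binds both collagen and laminin, is described below with the collagen-binding subunits. Itga6 (ENSMUSG00000027111.15, chromosome 2, 71745616 to 71858416, mm10), whose product pairs with β1 or β4, had 69.0, 68.0, 71.2 and 70.5 TPM in LPL overexpression replicates 1 to 4, against 126, 134 and 130 TPM in control replicates 1 to 3. The highest LPL overexpression library thus stood well under the lowest control. Its level fell by 47.5% in edgeR's test, with a log2 value of -0.93 ± 0.03 (SE) and an adjusted p = 2.49e-34, and all 4 libraries were lower than every control. Itga7 (chromosome 10, 128933813 to 128958277), known best from skeletal muscle, had 106, 102, 107 and 94.1 TPM with LPL overexpression, against 149, 143 and 151 TPM in controls. Its log2 fold change was -0.56 ± 0.03 (SE), with an adjusted p = 3.81e-13 in edgeR, with no overlap between groups. Itga3 (chromosome 11, 95044474 to 95076801), the most abundant of the alpha subunits in the controls, had 268, 246, 263 and 265 TPM with LPL overexpression, against 336, 331 and 339 TPM in controls. It fell by 23.8%, which gave a log2 fold change of -0.39 ± 0.03 (SE) and an adjusted p = 8.26e-19 in edgeR. Itga6 and Itga7 fell by more than any of the 7 endothelial markers, whose largest fall was -0.40 for Pecam1, and Itga3 by about as much as Pecam1; these differences between genes were not tested.

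Itgb4, the laminin receptor subunit of hemidesmosomes and the other partner of α6, was low and was also lower with LPL overexpression. It had 1.41, 1.52, 1.68 and 1.42 TPM with LPL overexpression, against 2.52, 2.34 and 2.38 TPM in controls. These levels rest on 73 to 95 reads per LPL overexpression library and 134 to 145 per control library. The log2 fold change was -0.71 ± 0.11 (SE), with an adjusted p = 3.33e-07 in edgeR, and the groups did not overlap.

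No collagen-binding alpha subunit passed the test. Itga1, the collagen and laminin receptor subunit of many vessels, had 41, 42.0, 41.7 and 41 TPM with LPL overexpression, against 40.9, 42.5 and 39.9 TPM in controls. The LPL overexpression range lay within the control range, and the log2 fold change was -0.02, with a 95% interval of -0.08 to 0.05 (adjusted p = 0.747 in edgeR). Itga10 averaged 1.24 TPM with LPL overexpression and 1.29 TPM in controls, and Itga2 0.412 TPM and 0.567 TPM. Neither was called (adjusted p = 0.707 for Itga10 and 0.183 for Itga2 in edgeR). Itga11 had no read in any library, and the floor of 3 reads over a group corresponds to 0.0280 CPM with LPL overexpression and 0.0372 CPM in controls.

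Among the RGD-binding alpha subunits the changes were small apart from the rare Itga8. Itgav, whose product serves several beta subunits, had 37.5, 36.1, 37.8 and 39.1 TPM with LPL overexpression, against 45.0, 42.2 and 41.8 TPM in controls, which gave a log2 fold change of -0.22 ± 0.03 (SE) and an adjusted p = 5.62e-09 in edgeR. Every LPL overexpression library lay under every control. Itga5, the fibronectin receptor subunit, averaged 258 ± 13.8 TPM (SD, n = 4) with LPL overexpression and 267 ± 0.565 TPM (SD, n = 3) in controls. Its call (log2 fold change -0.08, adjusted p = 0.0211 in edgeR) ended without LPL overexpression replicate 2 (adjusted p = 0.172), and without control replicate 2 (0.0712) or 3 (0.0913). Itga2b, the platelet fibrinogen receptor subunit, averaged 5.81 ± 0.603 TPM with LPL overexpression and 6.67 ± 0.557 TPM in controls, and its call (log2 fold change -0.23, adjusted p = 0.0136 in edgeR) ended without LPL overexpression replicate 4 (adjusted p = 0.111) or control replicate 3 (0.157). The 4 platelet and megakaryocyte markers summed to between 20.5 and 27.8 TPM with LPL overexpression and between 17.1 and 19.5 TPM in controls, and their part in the Itga2b values was not tested. Among them, Pf4 averaged 14.7 TPM with LPL overexpression and 10.2 TPM in controls, and Gp9 8.60 and 7.55 TPM, while Gp1ba averaged 0.752 and 0.533 TPM.

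Itga8 and Itga9, both scarce, were higher with LPL overexpression. Itga9 (chromosome 9, 118606690 to 118901003), whose product binds tenascin-C and osteopontin among others, had 52, 64, 69 and 63 reads in the LPL overexpression libraries, against 1, 1 and 0 in the controls. That is 0.914, 0.932, 1.19 and 0.982 TPM with LPL overexpression, against at most 0.0158 TPM in any control. The ratio of pooled normalised counts was 93.4 with an exact 95% counting interval of 25.6 to 775, and the gene was called higher (adjusted p = 3.78e-19 in edgeR). Itga8, a subunit of the nephronectin receptor, had 13, 10, 10 and 12 reads with LPL overexpression, against 4, 3 and 4 in controls. The pooled ratio was 3.08 (exact 95% counting interval 1.57 to 6.60), at no more than 0.238 TPM in any library (adjusted p = 0.00201 in edgeR). Without LPL overexpression replicate 1, 3 or 4, Itga8 no longer had enough reads to be tested. The 4 LPL overexpression libraries also carried the pigment cell markers, at a summed level of at least 2130 TPM, and a link of these markers to Itga8 or Itga9 was not tested. Itga4, the subunit of the VCAM-1 receptor, had 22.9, 21.9, 23.2 and 22.7 TPM with LPL overexpression, against 21.9, 20 and 19.7 TPM in controls, which gave a log2 fold change of 0.12 ± 0.03 (SE) and an adjusted p = 0.00282 in edgeR. Its normalised counts overlapped between the groups.

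The beta subunits were dominated by Itgb1. It had 700, 747, 729 and 712 TPM with LPL overexpression, against 795, 805 and 784 TPM in controls, which gave a log2 fold change of -0.17 ± 0.03 (SE) and an adjusted p = 2.26e-07 in edgeR, and made up 86.5% to 87.5% of the summed beta subunit level with LPL overexpression and 87.6% to 88.2% in controls. Itgb3, which pairs with αv and αIIb, averaged 96.3 ± 2.50 TPM with LPL overexpression and 99.2 ± 2.59 TPM in controls. Its log2 fold change of -0.07 (adjusted p = 0.0307 in edgeR) went with overlapping groups, and the call ended without any 1 of LPL overexpression replicates 1 (adjusted p = 0.0962), 2 (0.0542) and 3 (0.0814) or control replicates 2 (0.131) and 3 (0.212). Itgb5 (chromosome 16, 33829665 to 33949153), the partner of αv in a vitronectin receptor, was the beta subunit that was called higher. It had 6.11, 5.97, 5.23 and 6.70 TPM with LPL overexpression, against 3.19, 4.17 and 3.93 TPM in controls, so that the lowest LPL overexpression library exceeded the highest control. The log2 fold change was 0.65 ± 0.11 (SE), with an adjusted p = 1.37e-06 in edgeR.

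Among Itgb2, Itgb7 and the genes of the leukocyte alpha subunits, Itgb2 alone reached 1 TPM in any library. Itgb2, the common beta subunit of those integrins, averaged 3.10 ± 0.295 TPM with LPL overexpression and 3.71 ± 0.532 TPM in controls, which edgeR did not call (log2 fold change -0.29, adjusted p = 0.0679). It passed without LPL overexpression replicate 2 (adjusted p = 0.0381) or control replicate 3 (0.0303). Of its alpha partners, Itgal had 12 reads over the LPL overexpression libraries and 11 over the controls, and Itgam and Itgax each had 1 and 2 reads. Itgam is listed in 2 rows of the tables, the second with no read. Itgb7 averaged 0.332 TPM with LPL overexpression and 0.502 TPM in controls and was not called (adjusted p = 0.2 in edgeR). Itgae had 22 reads over the LPL overexpression libraries and 16 over the controls. Itgb6, whose product pairs with αv, had 0 and 3 reads, and Itgb8, the gene of another partner of αv, had 4 and 0. The 6 leukocyte markers summed to between 250 and 273 TPM with LPL overexpression and between 184 and 199 TPM in controls, nearly all of it Cd68, the only one at 1 TPM or more in every library. Of the others, Adgre1 and Cd3e had no read in any library, and Ptprc and Lyz2 had at most 2 reads in any library.

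Which pairs the levels allow was read from the scarcer subunit, since a pair needs both, and RNA levels do not show that a pair is assembled. Of 23 known pairs made of these subunits, 12 had both subunits at 1 TPM or more in every library of LPL overexpression, and 12 in every control. They were the same 12: α1β1, α3β1, α4β1, α5β1, α6β1, α7β1, α10β1, αvβ1, αvβ3, αvβ5, αIIbβ3 and α6β4. The α9β1 pair was just under that level with LPL overexpression, where Itga9 ran from 0.914 to 1.19 TPM, against at most 0.0158 TPM in controls. At 0.5 TPM it was counted with LPL overexpression but not in controls, and α2β1 in controls but not with LPL overexpression. Of the pairs examined, none of β2, β6, β7 or β8 was allowed at 1 TPM in any library. Itgb6, Itgb7 and Itgb8 were under that level, as were Itgal, Itgam and Itgax. No other alpha partner of Itgb2 was examined. The α6β4 pair was limited by Itgb4, at 1.5 TPM with LPL overexpression and 2.41 TPM in controls, far below Itga6 itself. The αIIbβ3 pair was limited by Itga2b and αvβ5 by Itgb5.

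The summed level of the alpha partners of β1 was close to that of Itgb1 itself. The 12 partners together reached 758 to 814 TPM with LPL overexpression and 982 to 991 TPM in controls, which is 1.02 to 1.16 per Itgb1 with LPL overexpression and 1.22 to 1.26 in controls. The laminin-binding Itga3, Itga6 and Itga7 supplied 53.5% to 55.0% of the partner sum with LPL overexpression and 61.9% to 62.6% in controls. Itga6 alone supplied 8.77% ± 0.209 (SD, n = 4) with LPL overexpression and 13.2% ± 0.456 (SD, n = 3) in controls. Itga5 took 32.4% ± 0.844 with LPL overexpression and 27.1% ± 0.157 in controls, a larger share of a smaller sum. These shares and sums are given with no test, and αv is also shared with other beta subunits.

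**Figure D3:**
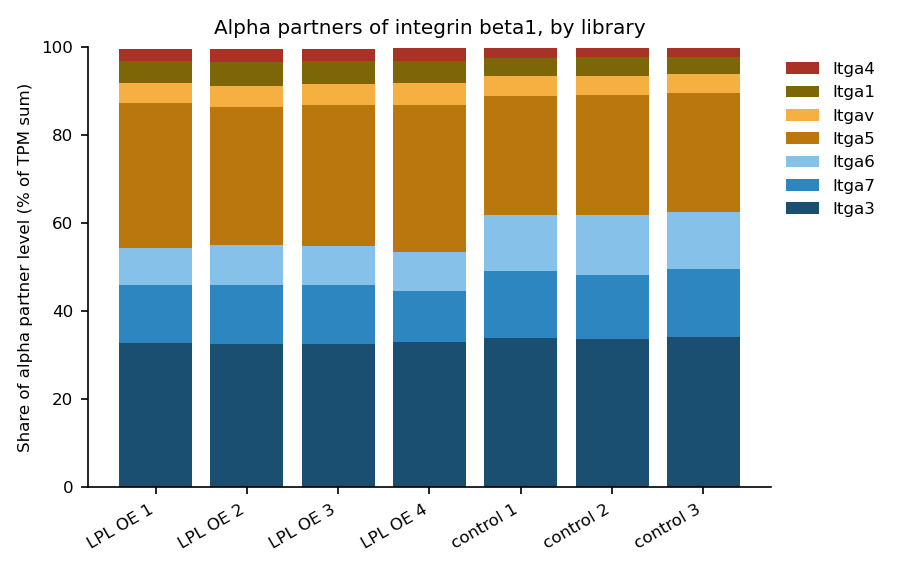
Share of Itga3, Itga7, Itga6, Itga5, Itgav, Itga1 and Itga4 in the summed TPM of the alpha partners of integrin β1 (y axis, percent). Bars are libraries, for LPL overexpression (LPL OE) replicates 1 to 4 and control replicates 1 to 3. The scarcer partners are in the sum but not drawn. The 3 blue laminin-binding subunits fill 53.5% to 55.0% of the LPL overexpression bars and 61.9% to 62.6% of the control bars.

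Ratios of 2 chains within a library do not depend on how libraries are scaled to each other. For 17 such ratios a two-sided exact permutation test was run on the 35 ways to divide the 7 libraries, where 0.0286 is the smallest p possible and becomes 0.0486 after Benjamini-Hochberg adjustment over the 17 ratios. Of these, 10 reached that value. The adjusted value rests on how many of the 17 ratios reach the smallest p, so these 10 pass only as a set. The ratios were chosen with earlier results of these data known, and many share Itgb1 or Lamc1 as the denominator. Itga6 per Itgb1 was 0.0966 ± 0.00373 (SD, n = 4) with LPL overexpression and 0.164 ± 0.00433 (SD, n = 3) in controls, a log2 difference of -0.76. Itga7 per Itgb1 was lower by -0.39 and Itga3 per Itgb1 by -0.23 on the log2 scale, both at an adjusted exact permutation p = 0.0486. By the same test Itga1 per Itgb1 was higher by 0.15 and Itga4 per Itgb1 by 0.28. Itga5 per Itgb1 (0.08, adjusted exact permutation p = 0.324) and Itgav per Itgb1 (-0.05, 0.425) did not pass. Itgb5 per Itgav was 0.160 ± 0.0144 with LPL overexpression and 0.0879 ± 0.0150 in controls, and Itgb3 per Itgav was 2.56 ± 0.0586 and 2.31 ± 0.153. Both were higher with LPL overexpression at that smallest p. Itgb4 per Itga6 (0.22, adjusted exact permutation p = 0.0883) and Itga2b per Itgb3 (-0.16, 0.324) did not pass.

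Of the 10 laminin chains 7 were tested, of which 4 were called lower, 3 were not called and 0 were called higher, while Lama2, Lama3 and Lamb3 had too few reads to be tested. Over all genes tested, 21.3% were called lower and 21.9% higher. Lama5, which encodes the α5 chain typical of mature vessels, had 79.4, 71.3, 77.1 and 83.5 TPM with LPL overexpression, against 103, 100 and 104 TPM in controls. The groups did not overlap, and the log2 fold change was -0.42 ± 0.04 (SE), with an adjusted p = 5.72e-07 in edgeR. Lama4 (chromosome 10, 38965515 to 39110188), the gene of the other endothelial alpha chain, had 26.7, 25.8, 26.7 and 27.6 TPM with LPL overexpression, against 34.4, 35.7 and 34.4 TPM in controls, which gave a log2 fold change of -0.41 ± 0.03 (SE) and an adjusted p = 2.00e-17 in edgeR. The ratio of these chains did not pass: Lama5 per Lama4 was 2.91 ± 0.120 with LPL overexpression and 2.94 ± 0.117 in controls (log2 difference -0.01, adjusted exact permutation p = 0.83).

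Of the beta and gamma chains, Lamc1 and Lamb1 were lower by less. Lamc1 lay between 288 and 322 TPM in the 4 LPL overexpression libraries, against 349, 347 and 350 TPM in controls, which gave a log2 fold change of -0.20 ± 0.03 (SE) and an adjusted p = 5.76e-09 in edgeR. Lamb1 had 29.2, 28.1, 28.6 and 29.1 TPM with LPL overexpression, against 31.8, 31.5 and 30.1 TPM in controls, a log2 fold change of -0.14 (adjusted p = 1.42e-04 in edgeR). Lamb2, the gene of the beta chain that takes the place of the Lamb1 product in other vascular laminins, had 61.5, 56.9, 57.5 and 61.9 TPM with LPL overexpression, against 59.2, 59.5 and 61.8 TPM in controls. These ranges overlapped, and the log2 fold change of -0.04 had a 95% interval of -0.11 to 0.02 (adjusted p = 0.252 in edgeR). Within a library, Lama5 per Lamc1 was lower by -0.22 and Lama4 per Lamc1 by -0.20 on the log2 scale, and Lamb2 per Lamc1 was higher by 0.16, each at an adjusted exact permutation p = 0.0486. Lamb1 per Lamc1 (0.06, 0.224) and Lamb2 per Lamb1 (0.10, 0.162) did not pass that test.

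**Figure D4:**
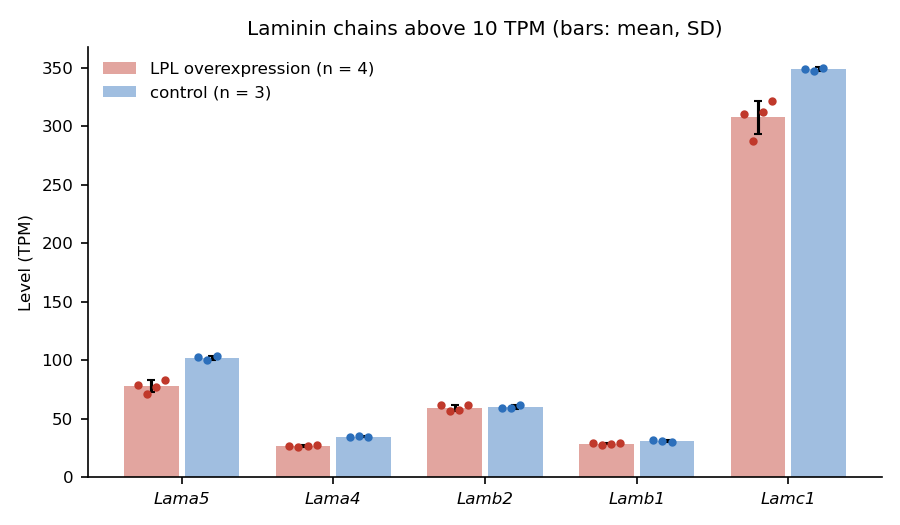
Level of the 5 laminin chains above 10 TPM (y axis, TPM), with bars for the mean, error bars for the SD and points for libraries, LPL overexpression (n = 4) left and control (n = 3) right of each pair. Lamc1 stands at 308 and 349 TPM, above the other chains, and the bars of Lamb2, at 59.5 and 60.2 TPM, overlap in their error bars.

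Of 13 trimers made of the chains analysed, 4 had every chain at 1 TPM or more in every library, the same in both groups: laminin-411, laminin-421, laminin-511 and laminin-521. The sum of alpha chains was 98.2 to 112 TPM with LPL overexpression and 137 to 139 TPM in controls, and that of beta chains 85.1 to 91.0 TPM with LPL overexpression and 91.0 to 92.0 TPM in controls. The γ1 and γ3 chains summed to 289 to 322 TPM with LPL overexpression and 347 to 350 TPM in controls, so that gamma chain RNA exceeded beta chain RNA 3.39- to 3.62-fold with LPL overexpression and 3.81- to 3.83-fold in controls. Laminin-521 had the highest scarcest chain, Lamb2, at 59.5 TPM with LPL overexpression and 60.2 TPM in controls. Laminin-411 and laminin-421 were limited with LPL overexpression by Lama4, at 26.7 TPM. In the controls Lamb1, at 31.1 TPM, limited laminin-411, and Lama4, at 34.9 TPM, limited laminin-421. Trimers of Lama1 fell just short, at 0.947 TPM with LPL overexpression and 0.986 TPM in controls. Lama2, Lama3, Lamb3 and Lamc3 stayed at or under 0.258 TPM in every library, with 7, 30, 2 and 32 reads over the LPL overexpression libraries and 6, 17, 4 and 30 over the controls. Trimers that hold a γ2 chain were not analysed here.

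**Figure D5:**
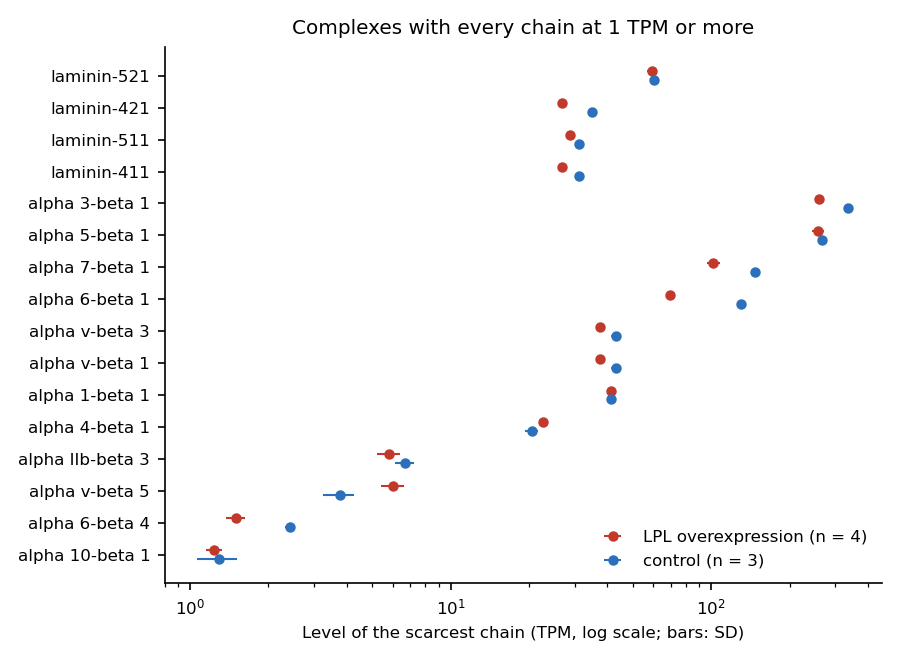
Level of the scarcest chain (x axis, mean TPM on a log scale, bars for the SD) of each integrin pair and laminin trimer with every chain at 1 TPM or more, LPL overexpression above control for each complex. The points of α6β1 stand at 69.7 and 130 TPM and those of α1β1, at 41.4 and 41.1 TPM, lie on each other.

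Genes that act with integrins and laminins were read from 7 lists holding 79 genes, of which 72 were tested, 18 (25%) called higher and 28 (38.9%) lower, beside 21.9% and 21.3% of all genes. Those shares of all genes tested are also the background for the counts of each list below. Talins and kindlins, the proteins that switch integrins on from inside the cell, mostly did not pass. Of 7 tested activators and linkers 1 was called higher and 2 lower, with a median log2 fold change of -0.04. Tln1 averaged 297 ± 9.79 TPM (SD, n = 4) with LPL overexpression and 287 ± 8.35 TPM (SD, n = 3) in controls, and Fermt2 141 ± 1.71 and 137 ± 4.29 TPM. Neither passed (adjusted p = 0.530 for Tln1 and 0.778 for Fermt2 in edgeR). The less abundant Tln2 averaged 6.63 TPM with LPL overexpression and 4.56 TPM in controls and was called higher (log2 fold change 0.51), while Rap1b (-0.26) and Apbb1ip (-0.21), a small GTPase and its effector on the path to talin, were lower. Of 4 inhibitors, 3 were called higher by small amounts and none lower: Itgb1bp1, which competes with talin for the β1 tail (0.17), Dok1 (0.16) and Flna (0.06), with a median of 0.12.

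In focal adhesions, the plaques that link integrins to actin, 15 of 25 tested genes were lower and 4 higher, with a median log2 fold change of -0.12. Tns1 and Tns2 encode tensins, which bind beta subunit tails. Tns1 averaged 11.4 TPM with LPL overexpression and 16.6 TPM in controls (log2 fold change -0.57, adjusted p = 5.86e-12 in edgeR), and Tns2 163 and 199 TPM (-0.32). Among partners of integrin-linked kinase, Lims1 (-0.27) and Parvb (-0.26) were lower, while Parva, at 165 and 148 TPM, was higher (0.13). Ilk, the gene of that kinase, was not called (log2 fold change 0.06, adjusted p = 0.0742 in edgeR). Zyx, a stress fibre protein gene, was higher (0.29). Of 8 lateral partners, 2 were higher and 3 lower. Cd47, which associates with αvβ3, averaged 105 ± 2.71 TPM with LPL overexpression and 139 ± 5.42 TPM in controls, which gave a log2 fold change of -0.43 ± 0.03 (SE) and an adjusted p = 2.63e-18 in edgeR. The tetraspanin gene Cd81 was lower (-0.23), as was Cd63 (-0.09), while Cd82 (0.23) and Slc3a2 (0.16) were higher. Cd151, the tetraspanin that binds laminin-binding integrins, averaged 308 ± 4.11 TPM with LPL overexpression and 299 ± 7.22 TPM in controls and did not pass (log2 fold change 0.02, adjusted p = 0.644 in edgeR).

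Other basement membrane genes went both ways, with 3 higher and 3 lower of 10 tested and a median log2 fold change of 0.01. The shares over all genes tested were 21.9% higher and 21.3% lower. Nid1, which encodes the nidogen that links the laminin γ1 chain to collagen IV, averaged 360 ± 8.08 TPM (SD, n = 4) with LPL overexpression and 242 ± 7.78 TPM (SD, n = 3) in controls. Its log2 fold change was 0.55 ± 0.03 (SE), with an adjusted p = 9.40e-25 in edgeR, and the groups did not overlap. Agrn, the gene of the heparan sulfate proteoglycan agrin, averaged 6.78 ± 0.504 TPM with LPL overexpression and 3.47 ± 0.273 TPM in controls (log2 fold change 0.94, adjusted p = 2.92e-17 in edgeR), and Nid2 1.2 and 0.788 TPM (0.59). Bcam, a receptor of the laminin α5 chain outside the integrin family, was lower (-0.24), as was the netrin gene Ntn4 (-0.22), while Dag1, the gene of dystroglycan, did not pass (0.03, adjusted p = 0.510 in edgeR).

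Among 13 tested ligands of integrins other than laminins and collagens, 4 were called higher and 2 lower, with a median log2 fold change of 0.17. Beside them, 21.9% of all genes tested were called higher and 21.3% lower. Npnt, the gene of the α8β1 ligand nephronectin, had 42, 42, 33 and 29 reads in the LPL overexpression libraries, against 0, 0 and 1 in the controls, a pooled ratio of 110 (exact 95% counting interval 19.4 to 4370). Emilin1, whose product is bound by α4β1 and α9β1, averaged 55.9 ± 2.44 TPM with LPL overexpression and 39.4 ± 0.784 TPM in controls (log2 fold change 0.48, adjusted p = 2.09e-16 in edgeR). Spp1, the gene of osteopontin, was higher (0.33), Tgfb1, whose latent form is bound by αv integrins, was lower (-0.44), as was Lrrc32, which holds latent TGF-beta at the surface (-0.36). Fn1 averaged 113 ± 10.4 TPM with LPL overexpression and 107 ± 2.67 TPM in controls and did not pass (log2 fold change 0.06, adjusted p = 0.594 in edgeR). Of 5 tested ligands of leukocyte integrins, 1 was higher (Jam3, 0.13) and 3 lower, with a median of -0.11. Vcam1, the α4β1 ligand, averaged 28.3 TPM with LPL overexpression and 35.8 TPM in controls (-0.37, adjusted p = 1.20e-13 in edgeR), and F11r (-0.21) and Icam2 (-0.11) were also lower. In each of the 4 LPL overexpression libraries the pigment cell markers summed to at least 2130 TPM beside these changes.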

How the data were processed

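Total RNA of MS-1 cells was sequenced with the TruSeq stranded kit, per the labels' protocols, and aligned with STAR to mm10, per the submitters' processing notes; their versions and the annotation were not given in the sources used here. The authors' deposited counts are raw whole reads by orientation, per the file headers. Reverse-orientation counts, 97.0% to 97.1% of oriented reads, were used. The authors' TPM values, scaled to 1000000 over all genes, gave the levels.

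Counts were tested with edgeR 4.0.16 in R 4.3.3 (quasi-likelihood F test, TMM, filterByExpr, group as the only term, robust), with Benjamini-Hochberg adjustment across the 13639 genes that passed the filter and calls at 0.05. A standard error was taken as the size of the log2 change divided by the root of its F, and 95% intervals are normal intervals from it. Counting intervals (Clopper-Pearson, SciPy 1.17.1) and the floor of 3 counts cover counting error only. The edgeR step was tested on simulated data. No pair of libraries in a group agreed within sampling noise. Alternatives were DESeq2 1.42.0, limma 3.58.1 on log2(TPM + 0.5) and log2(TPM + 0.1), upper-quartile factors, no filter, both orientations, a replicate block and leaving out each library.

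The genes, lists, pairs and ratios were chosen with earlier results of these data known. Genes named from a list are the up to 3 called genes with the lowest adjusted p, the up to 2 further called genes with the largest change, and Dag1, Bcam, Cd151, Tln1, Fermt2, Fn1 and Nid1 whatever their result. Parva and Ilk are named in addition, beside Lims1 and Parvb. The FPKM columns, and TPM columns that sum to more than 1000000, were not used.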

Additional observations from a re-analysis of the deposited data

Results flagged for a closer look

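The check covered 55 genes, which are not all of those named in the text. Within these, the library that stood apart was LPL overexpression replicate 2 for Tns2, with 153 TPM against 165 to 167 TPM in the other 3 LPL overexpression libraries. The gap to its nearest neighbour was 0.846 of the range, above Dixon's 95% limit for 4 samples. Among the 55 genes checked, chance alone flags about 1 in 20 groups.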

How the results depend on the processing

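Of the 17 integrin and laminin genes called, 13 were called in all 14 alternative fits: Itga3, Itga4, Itga6, Itga7, Itga9, Itgav, Itgb1, Itgb4, Itgb5, Lama4, Lama5, Lamb1 and Lamc1. The matching share over all called genes was not computed, so whether these genes were steadier than others is not known. Itga6 ranged from -0.96 to -0.90 in log2 fold change, Itga7 from -0.58 to -0.51 and Itgb5 from 0.54 to 0.73. The calls of Itga2b, Itga5 and Itgb3 ended with DESeq2 (adjusted p = 0.0639, 0.0508 and 0.0799) and with limma on TPM. Those of Itga5 (0.0861) and Itgb3 (0.155) also ended with upper-quartile factors, that of Itgb3 with no filter (0.0555), and that of Itga2b with the replicate block (0.112). Itga8 had too few reads to be tested in 4 fits. Itga9 ranged from 1.56 to 6.64, the lowest on log2(TPM + 0.5). Without one library at a time, 3 to 4 of the genes were called higher and 11 to 13 lower. Over all genes those fits called 2624 to 3002 higher and 2531 to 2723 lower. Same-numbered libraries did not deviate together (correlations of 0.02, -0.01 and 0.01 over 10989 genes). With the replicate block on replicates 1 to 3, 3 integrin and laminin genes were higher and 12 lower, beside 3010 and 2727 over all genes. The minimum level of a chain moved the count of integrin pairs to 13 at 0.5 TPM, 9 at 5 TPM and 8 at 10 TPM in both groups (at 5 TPM, αIIbβ3 counted in controls alone and αvβ5 with LPL overexpression alone), and of laminin trimers to 6, 4 and 4.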

Other observations

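Reads in the opposite orientation outnumbered those of Itgae itself, with 126 against 22 over the LPL overexpression libraries and 115 against 16 over the controls, and the tables list Gsg2 on the other strand within the same interval. Itga2b had 172 opposite-orientation reads over the LPL overexpression libraries and 130 over the controls, beside 1018 and 898 in its own.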
